A study of Sus scrofa with 6 samples.

Results

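The genes described here are the pig genes that the deposited tables annotate to the TNF signaling pathway. Of 19465 genes in each table, 83 carried that pathway entry. Of these, 1 was set aside because it also carried a synapse or cell cycle entry, and FOS and CXCL10 were set aside by name, which left 80 genes. The choice of these 80 rests on annotation and gene names. In each tissue the rule also sets a floor on the measured level, given below, for the members that are counted.

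Tumour necrosis factor (TNF) is a cytokine made mainly by activated macrophages, microglia and lymphocytes. Its receptor TNFRSF1A assembles a complex of adaptors, kinases and ubiquitin ligases that switches on the NF-kB and MAP kinase cascades, and that complex can instead start caspase-driven or necroptotic cell death. The NF-kB and AP-1 factors then turn on chemokines, growth factors, adhesion molecules and matrix proteases, along with inhibitors such as NFKBIA and TNFAIP3 that shut the pathway down again. In the ovary, TNF and its targets are known from ovulation, follicular atresia and breakdown of the corpus luteum, and in the brain microglia are a main source of TNF and IL1B.

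The animals were primiparous sows, which had farrowed 1 litter, of the cross Landrace x Large White. One group was in normal estrus, and in the other the labels attribute anestrus to inactive ovaries. Intact hypothalamus, pituitary and ovary were taken from each group, with no age and no treatment agent given, and each tissue and state gave 1 RNA sequencing library, 6 in all. The labels name 3 sows for each state, and whether a library holds pooled RNA or that of 1 sow is not said. The comparison asks how expression along the reproductive axis differs between the states.

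The libraries held 15314325 to 17384789 reads assigned to genes. With 1 library per tissue and state there was no replicate and no test, so "higher" and "lower" compare the anestrous with the estrous library, and all values describe these 6 libraries. Every 95% interval of a fold is an exact conditional binomial interval that covers counting error only. In whole tissue, fewer cells of a type and less RNA per cell cannot be told apart. Markers fitted the tissue labels: each of the 7 neuronal markers had 851 reads or more in both hypothalamus libraries, pituitary hormone genes summed to 4111480 and 4644970 normalised reads in the pituitary (estrous and anestrous), and granulosa, theca and oocyte genes were all detected in the ovary. In that last list 10 of 11 genes were at least 2-fold lower, where 10.7% of 13193 ovarian genes over the floor were. The sum of the list was 207199 normalised reads in estrus and 24286 in anestrus.

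Levels of a gene are given as reads, as the authors' normalised reads (reads scaled by a size factor per library), or, across tissues, as RPM, the reads of the gene per 1000000 reads assigned to genes. A member was counted as 2-fold different in a tissue when its mean normalised value was at least 10 and its log2 difference, with a pseudocount of 1, was at least 1 in size. In the hypothalamus 64 of 80 members reached that mean, in the pituitary 63 and in the ovary 70. In the hypothalamus 3 of the 64 reached it through 1 state only (TNF, SELE and CREB3L4), as did MMP9 and IL1B1 in the pituitary and IL1B1 and LIF in the ovary, so counts over these members are descriptions. There were 61 members over the floor in all 3 tissues, 10 in 1 or 2 tissues and 9 in none. Of those 9, CCL20, MMP3 and IL18R1 had a few reads, and 6 rows were listed at 0 in every library: IL1B2, both rows for IL6, CSF2, CEBPB and MAP3K5. A second row named MAP3K5, without the pathway entry, held 480 hypothalamic reads in estrus and 585 in anestrus, so a value of 0 in these tables does not show that a gene is silent.

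Just over the floor were CREB3L4 (mean 10.4) and SELE (10.5) in the hypothalamus, IL1B1 (11.9) and MMP9 (14.8) in the pituitary, and SELE (13.1) and LIF (22.1) in the ovary. Just under it were CASP10 (8.43) and MMP9 (6.51) in the hypothalamus, SELE (8.43) and LTA (7.12) in the pituitary, and IL18R1 (9.45) and TNF (3.60) in the ovary.

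In the hypothalamus 5 TNF pathway genes were at least 2-fold lower in the anestrous library, and none was 2-fold higher. They were TNF itself, the cytokine and chemokine genes CXCL2, IL1B1 and CCL2, and the feedback inhibitor TNFAIP3. The 5 lower genes are 7.81% of the 64 members, where 2.61% of 13587 genes over the floor were 2-fold lower and 1.99% were 2-fold higher. Of the members, 44 lay below 0 and 20 above, so 68.8% were below 0 where 50.2% of all genes were. The median log2 difference of the members was -0.20.

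In the pituitary the fewest members were 2-fold different. MMP9 and TNFAIP3 were 2-fold lower and none was 2-fold higher. These 2 are 3.17% of 63 members, under the 4.23% of 13144 genes that were 2-fold lower, and 2.27% of all genes were 2-fold higher. The median of the members was -0.06, with 40 below 0 and 23 above, so 63.5% were below 0 where 50.3% of all genes were.

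In the ovary the members leaned the other way: 12 were 2-fold higher or more, and 5 were 2-fold lower or more. The 12 are 17.1% of 70 members, where 13.6% of 13193 genes were 2-fold higher, and the 5 are 7.14%, where 10.7% were 2-fold lower. The median log2 difference was 0.42, where that of all genes was 0.01, and 53 members lay above 0 and 17 below (75.7% above, where 50.4% of all genes were). Many ovarian genes of every kind differed 2-fold between these libraries, and the shares of 2-fold members were near those of all genes.

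**Figure D1:**
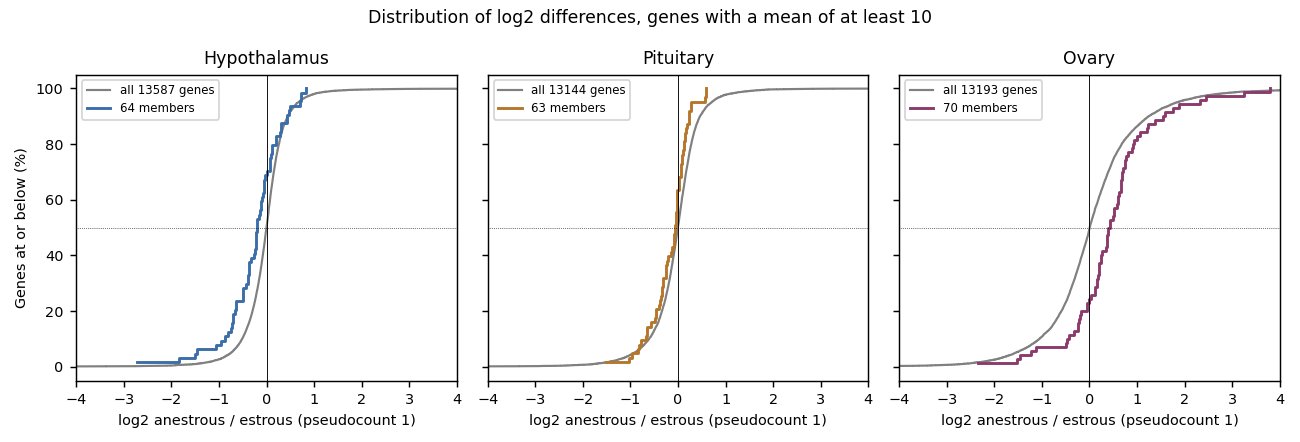
Cumulative share of genes (y axis, percent) against the log2 difference of the anestrous over the estrous library (x axis), for all genes over the floor in grey and for members in colour, 1 panel per tissue. The members' curve lies left of the grey curve over most of its range in the hypothalamus (median -0.20), near it in the pituitary (median -0.06) and right of it in the ovary (median 0.42).

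The scaling bears on these counts of direction. Making library totals equal, in place of the authors' size factors, moved the median of all genes by -0.09 in the hypothalamus, -0.11 in the pituitary and -0.20 in the ovary. Members then lay above 0 in 15 of 64, 14 of 63 and 45 of 70 cases (23.4%, 22.2% and 64.3%), where 37.2%, 36.1% and 38.9% of all genes did. Values close to 0 therefore change sign with the scaling, and directions below are those of the authors' scaling.

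The ligand TNF (ENSSSCG00000001404) had 53 reads in the estrous hypothalamus library and 7 in the anestrous one, where it was 7.34-fold lower (95% interval 3.32 to 19.1). That interval lies wholly on the lower side, and the value rests on these few reads. The authors' deposited table gives TNF an adjusted p of 0.102 there, the lowest of the members in that tissue. TNF had 4 and 2 pituitary reads and 1 and 6 ovarian reads, too few to describe. Its relative LTA (lymphotoxin alpha), a ligand of the same receptors, had 55 reads in the estrous and 17 in the anestrous ovary and was 2.99-fold lower (1.71 to 5.49), with 5 and 5 reads in the hypothalamus and 3 and 11 in the pituitary.

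TNFRSF1A, the receptor that most cells carry, was well covered in each library. It had 1096 and 807 reads in the hypothalamus (log2 difference -0.40), 1395 and 1049 in the pituitary (-0.33), and 2582 and 3799 ovarian reads (0.67). It was lower in hypothalamus and pituitary and higher in the ovary, each time by less than 2-fold. BAG4, which binds the receptor's death domain and keeps it silent, had 31 to 39 reads in the ovary, pituitary and hypothalamus libraries other than the anestrous pituitary, which had 19. The second TNF receptor, TNFRSF1B, and the adaptor TRADD had no row of that name and were not analysed here.

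Receptor adaptors and ubiquitin ligases stayed within 2-fold in all but 1 case. The kinase RIPK1, the scaffold of the receptor complex, had log2 differences of -0.12, -0.09 and 0.67 in hypothalamus, pituitary and ovary. TRAF2, the adaptor that recruits the ubiquitin ligases, had 404 and 240 reads in the hypothalamus (-0.70), 608 and 409 in the pituitary (-0.49) and 756 and 886 ovarian reads (0.34). TRAF5, a close relative of TRAF2, had 82 reads in the estrous and 176 in the anestrous ovary and was 2.33-fold higher (1.78 to 3.06). In the ovary 6 of 7 genes of this group lay above 0 (median 0.34), and in the hypothalamus and the pituitary 5 of 7 lay below (medians -0.12 and -0.09).

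Genes of the cell death arm were all below 0 in the hypothalamus (4 of 4 over the floor, median -0.36), and none was 2-fold lower. In the ovary 5 of 6 were above 0 (median 0.63). CASP10, an initiator caspase, had 19 reads in the estrous and 55 in the anestrous ovary, 3.14-fold higher (1.83 to 5.60). The adaptor FADD had 171 and 249 reads in the ovary (0.65). RIPK3 and MLKL carry out necroptosis, a lytic form of cell death. In the ovary RIPK3 had 952 and 766 reads (-0.20) and MLKL 31 and 44 (0.60), so the 2 did not lean the same way. FAS, a death receptor of the TNF receptor family that stands in none of the role groups, had 90 reads in the estrous and 246 in the anestrous ovary and was 2.96-fold higher (2.32 to 3.81), with log2 differences of -0.43 in the hypothalamus and 0.09 in the pituitary.

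In the IKK and NF-kB arm, 7 of 9 genes were below 0 in the hypothalamus (median -0.23) and 8 of 9 above 0 in the ovary (median 0.43). TNFAIP3 (A20), a ubiquitin-editing enzyme that ends NF-kB signalling, was 2-fold lower in hypothalamus and pituitary. It had 143 hypothalamic reads in estrus and 66 in anestrus (2.1-fold lower, 1.56 to 2.85), and 86 and 39 in the pituitary (2.08-fold lower, 1.41 to 3.12). In the ovary it had 310 and 321 reads, a log2 difference of 0.17. TNFAIP3 was the 1 member of 61 over the floor in both hypothalamus and pituitary that was 2-fold lower in both, where 62 of 12600 genes were. In the pituitary TNFAIP3 was just under 2-fold with a pseudocount of 5.

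NFKBIA, the inhibitor that holds NF-kB in the cytoplasm and is itself one of its direct targets, was lower in each tissue by less than 2-fold. It had 954 and 569 reads in the hypothalamus (-0.70), 1541 and 1131 in the pituitary (-0.36) and 1920 and 1310 ovarian reads (-0.44). It was the 1 gene of this arm below 0 in the ovary, beside IKBKB, the kinase that marks it for destruction, at 0.89 (824 and 1412 reads). The NF-kB subunit RELA had log2 differences of -0.27, -0.02 and 0.15, the last of which became -0.05 with equal library totals. NFKB1 had -0.74 in the hypothalamus on 42 and 24 reads, 0.12 in the pituitary and 0.74 in the ovary on 76 and 118 reads. BCL3, a nuclear partner of NF-kB, went against most of the arm in the hypothalamus at 0.82 (62 and 107 reads).

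**Figure D2:**
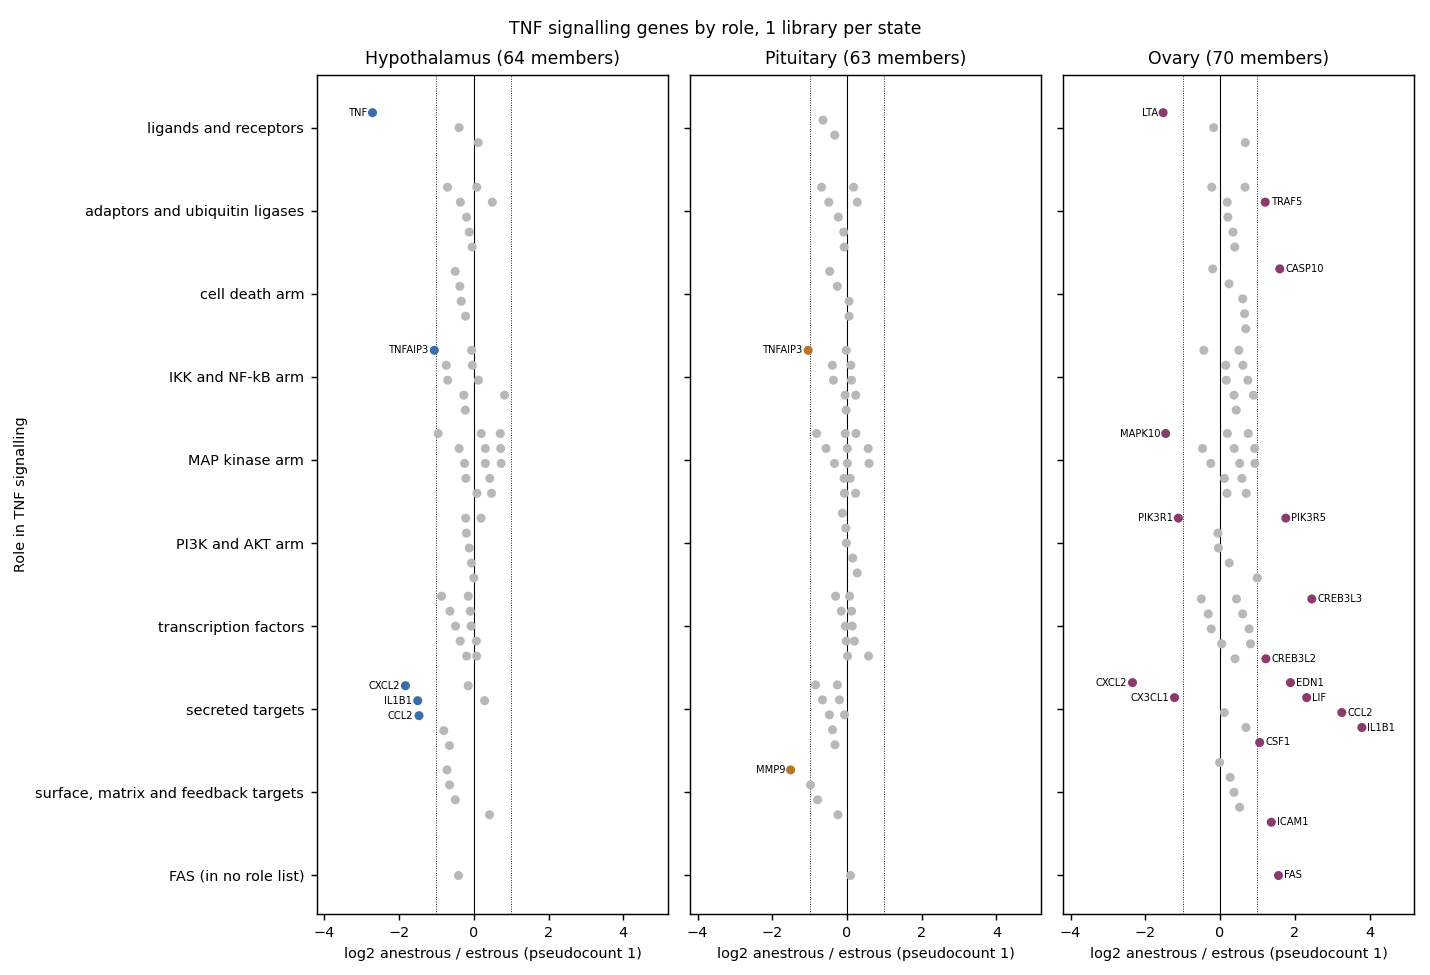
Log2 difference of the anestrous over the estrous library (x axis) for each member over the floor, grouped by role (y axis), 1 panel per tissue, with coloured and named points for members at least 2-fold different and dotted lines at 2-fold. The named points lie on the left in the hypothalamus (5) and the pituitary (2), and on both sides in the ovary (12 right, 5 left).

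The MAP kinase arm went against the other groups in the hypothalamus. There 9 of 13 genes lay above 0 (median 0.31), and none was 2-fold different. MAP2K1, a kinase that activates the ERK kinases, had 388 and 625 reads (0.73), MAP2K6, which activates p38, 88 and 141 (0.72), and MAPK8 (JNK1) 47 and 75 (0.71). MAP3K8, which couples NF-kB1 to the ERK pathway, lay at the other end with 117 and 58 reads (-0.95). Beside this group, all 7 neuronal markers were higher in the same library, by log2 differences of 0.40 to 0.83, and the part of this in the result was not tested. In the ovary 10 of 13 genes of the arm were above 0 (median 0.38), while MAPK10, the neuronal JNK3, had 97 and 32 reads and was 2.80-fold lower (1.86 to 4.31). In the pituitary the median was 0.01.

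Genes of the PI3K and AKT arm, which carries survival signals, stayed within 2-fold in hypothalamus and pituitary (medians -0.09 and -0.02). In the ovary 2 regulatory subunits of PI3K were 2-fold different in opposite directions. PIK3R5, which serves the PI3K gamma of blood cells, had 288 reads in the estrous and 901 in the anestrous ovary and was 3.39-fold higher (2.97 to 3.88). PIK3R1, the common subunit p85 alpha, had 107 and 45 reads and was 2.19-fold lower (1.54 to 3.18). PIK3CG, the catalytic subunit that pairs with PIK3R5, had 18 and 34 ovarian reads in the member's row (0.99), and a second row of that name outside the pathway entry had 195 and 465. AKT2, a kinase downstream of PI3K, lay at -0.06 in the ovary.

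Among the transcription factors, 8 of 10 were below 0 in the hypothalamus (median -0.17) and 8 of 11 above 0 in the ovary (median 0.44). CREB3L3, a membrane-bound factor best known from the liver, had 31 reads in the estrous and 161 in the anestrous ovary and was 5.63-fold higher (3.81 to 8.56). Its relative CREB3L2 had 310 and 670 ovarian reads and was 2.34-fold higher (2.04 to 2.69). The AP-1 factors did not share that direction in the ovary. JUN had 10857 and 7074 reads there (-0.50) and JUNB 2771 and 2048 (-0.32). In the hypothalamus JUN lay at -0.36 and JUNB at -0.64, and in the pituitary they lay at -0.04 and 0.02.

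In the ovary the secreted targets held the widest differences. IL1B1 (ENSSSCG00000008088), a gene for the cytokine interleukin 1 beta, had 110 hypothalamic reads in estrus and 37 in anestrus, 16 and 8 in the pituitary, and 7 and 102 ovarian reads. It was 2.88-fold lower in the hypothalamus (1.97 to 4.30) and 15.8-fold higher in the ovary (7.39 to 40.3). IL1B2, a related gene of the same family, is listed at 0, and how the counting treated reads shared by both is not given in the sources used here. The authors' deposited table gives IL1B1 an adjusted p of 0.465 in the hypothalamus and 0.224 in the ovary.

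CCL2 (ENSSSCG00000017723), the chemokine that draws in monocytes, showed the same opposite pattern. It had 56 and 19 reads in the hypothalamus (2.86-fold lower, 1.67 to 5.09), 94 and 56 in the pituitary (a log2 difference of -0.65), and 142 and 1261 in the ovary (9.62-fold higher, 8.09 to 11.5). With an adjusted p of 0.0124 in the ovary, CCL2 was the 1 member that the authors' deposited table called at 0.05 in any tissue. Of all genes with an adjusted p in the authors' deposited table, 0.739% were called in the hypothalamus, 0.635% in the pituitary and 0.676% in the ovary.

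CXCL2 (ENSSSCG00000008959), a chemokine for neutrophils, was 2-fold lower in both hypothalamus and ovary. It was the 1 member of 63 over the floor in both tissues to be so, where 71 of 12305 genes were. It had 54 and 14 reads in the hypothalamus (3.74-fold lower, 2.05 to 7.29) and 219 and 39 in the ovary (5.18-fold lower, 3.67 to 7.48), with 32 and 24 in the pituitary. CX3CL1 (fractalkine), a tethered chemokine for monocytes and microglia, was also lower in the ovary, with 226 and 89 reads (2.34-fold, 1.83 to 3.03), and lay at 0.29 in the hypothalamus. The chemokine genes of the pathway thus did not differ in 1 direction in the ovary, where CCL5 lay at 0.69 (307 and 458 reads).

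Within the group of secreted targets, the other ovarian differences of 2-fold were all toward higher values. LTA, lower in the ovary as given above, is grouped with the ligands. EDN1, the vasoconstrictor endothelin 1, had 188 reads in estrus and 642 in anestrus (3.70-fold, 3.14 to 4.38). LIF, a cytokine of the IL6 family, had 7 and 36 (5.57-fold, 2.45 to 14.8). CSF1, the growth factor of macrophages, had 232 and 447 (2.09-fold, 1.78 to 2.46), and it was under 2-fold with equal library totals. Over the group, 7 of 9 genes over the floor were above 0 in the ovary (median 1.06). Of the 9, 5 were 2-fold higher and 2 were 2-fold lower, where 13.6% and 10.7% of all genes over the floor were. IL1B1 and LIF, among the 5, reached the floor through the anestrous library only, so that count is a description. In the hypothalamus 6 of 7 were below 0 (median -0.80), 3 of them 2-fold lower, where 2.61% of all genes over the floor were. In the pituitary 8 of 8 were below 0 with none 2-fold lower (median -0.35).

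Of the surface, matrix and feedback targets over the floor, 3 of 4 lay below 0 in the hypothalamus (median -0.57), 4 of 4 in the pituitary (median -0.88), and 4 of 5 lay above 0 in the ovary (median 0.37). ICAM1, an adhesion molecule for leukocytes, had 77 and 45 reads in the hypothalamus (-0.72), 26 and 12 in the pituitary (-0.98) and 126 and 302 ovarian reads, which made it 2.60-fold higher (2.1 to 3.22). VCAM1, a second such molecule, had 3566 and 2448 reads in the hypothalamus (-0.50), 458 and 250 in the pituitary (-0.79) and 2043 and 1868 ovarian reads (-0.01). The gelatinase MMP9 was 3.10-fold lower in the pituitary, but on 23 and 7 reads (interval 1.29 to 8.56), and had 1554 and 1728 reads in the ovary (0.27). MMP14, the membrane-bound protease that activates other matrix proteases, lay at -0.65, -0.24 and 0.37 in hypothalamus, pituitary and ovary.

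**Figure D3:**
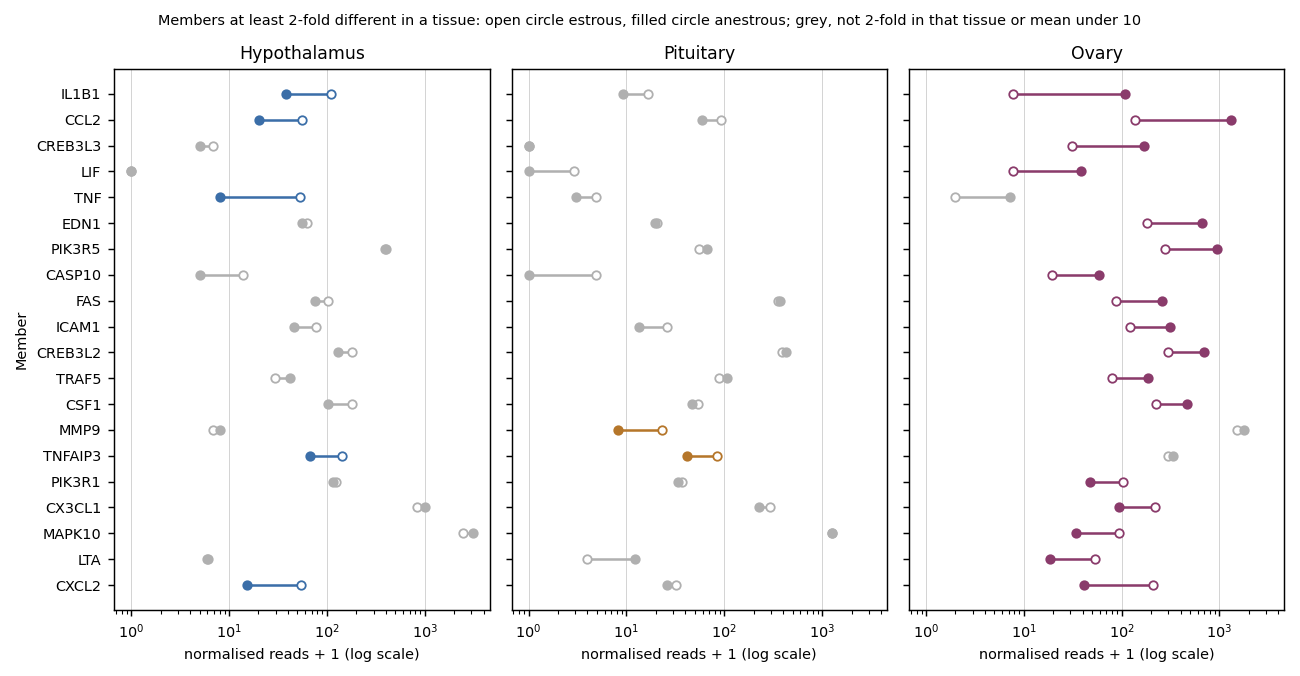
Normalised reads plus 1 (x axis, log scale) in the estrous (open) and anestrous (filled) library of each tissue, for the 20 members at least 2-fold different in at least 1 tissue (y axis), grey where the member was not 2-fold different or had a mean under 10. IL1B1 and CCL2 run leftward from open to filled circle in the hypothalamus and rightward in the ovary, while CXCL2 runs leftward in both.

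Direction was compared across tissues for members over the floor in both tissues of a pair, as a description, since no library is replicated. The shares below are near those that the members' lean in each tissue alone gives when multiplied, 50.9%, 47.4% and 43.9% in the order of the pairs below, so they show no link between tissues beyond that lean. Of 63 members in hypothalamus and ovary, 33 were lower in the hypothalamus and higher in the ovary (52.4%, where 25.8% of 12305 genes were). The opposite combination held for 6, both lower for 10 and both higher for 14. Of 63 members in pituitary and ovary, 31 were lower in the pituitary and higher in the ovary (49.2%, where 26.5% of all genes were). Of 61 members in hypothalamus and pituitary, 27 were lower in both (44.3%, where 27.0% of all genes were). At the 2-fold size, 2 of 63 members were lower in the hypothalamus and higher in the ovary, IL1B1 and CCL2, where 60 of 12305 genes were.

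Immune cell markers also differed between the libraries, in directions that varied with the cell type and tissue. In the ovary, neutrophil markers summed to 70.1 normalised reads in estrus and 5652 in anestrus, a ratio of 80.6, with 4 of 4 genes over the floor at least 2-fold higher and MPO at 0 in estrus. Of those 4, S100A8, S100A9 and S100A12 reached the floor through the anestrous library only, with 7, 6 and 10 reads in estrus, so their count is a description. Macrophage and microglia markers summed to 18042 and 33013 in the ovary (ratio 1.83), with 9 of 11 above 0 and 7 at least 2-fold higher, and CSF1R, the receptor for CSF1, had 176 and 2439 reads. T and B lymphocyte markers summed to 1328 and 1978 there (ratio 1.49), of which 3 of 12 were 2-fold higher or more and 2 were 2-fold lower or more. Of those 12, CD79B reached the floor through 1 state only. Over all ovarian genes over the floor, 13.6% were 2-fold higher and 10.7% 2-fold lower. Endothelium markers summed to 18853 and 27537 (ratio 1.46) and fibroblast and smooth muscle markers to 386946 and 360334 (ratio 0.93). The part of these cells in the ovarian values of IL1B1, CCL2, EDN1, PIK3R5, FAS and ICAM1 was not tested.

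In the hypothalamus, macrophage and microglia markers summed to 17171 and 14451 normalised reads (ratio 0.84), with 7 of 9 below 0, CSF1R at 421 and 1330 reads, MARCO at 0 in both libraries and CD163 at 0 in estrus. The microglial genes P2RY12 and CX3CR1 lay at -0.78 and -0.60. T and B lymphocyte markers summed to 658 and 427 (ratio 0.65), with 3 of 7 at least 2-fold lower and CD79B at 0 in anestrus. Of those 7, CD6 reached the floor through 1 state only, and 2.61% of all genes over the floor were 2-fold lower. Neutrophil markers had few reads, and their sum lay the other way, at 51.2 and 70.1 (ratio 1.37), with ELANE at 0 in anestrus. The genes themselves were split: of 4 over the floor, 2 lay above 0 and 2 below. Of the 4, 1 was at least 2-fold higher (1.99% of all genes were), and S100A12 reached the floor through 1 state only. Thalamus markers, from the brain region beside the hypothalamus, summed to 4112 and 9448 (ratio 2.30). Of these, 6 of 9 were at least 2-fold higher, where 1.99% of all genes over the floor were. Pituitary hormone genes summed to 6915 and 3207 in the hypothalamus (ratio 0.46), with 3 of 5 over the floor below 0 and 1 at least 2-fold lower. The part of cell make-up or of the dissected region in the lower TNF, IL1B1, CXCL2, CCL2 and TNFAIP3 values was not tested. In the pituitary, 6 of 9 lymphocyte markers over the floor were at least 2-fold lower (4.23% of all genes were), while their sum was higher (846 and 1035). Of those 9, CD4 and CD8A reached the floor through 1 state only, so the count is a description. Neutrophil markers summed to 142 and 296 there, and the macrophage sum differed little (3732 and 3553).

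**Figure D4:**
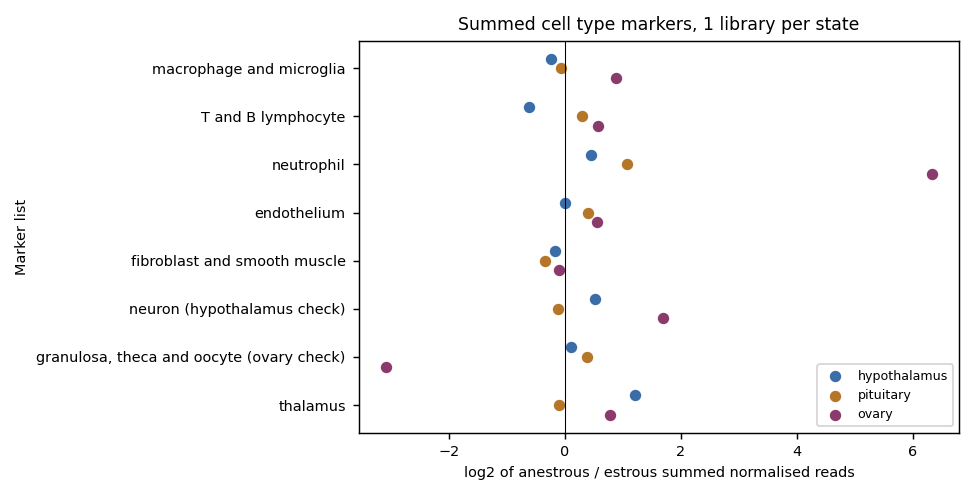
Log2 ratio of the anestrous over the estrous sum of normalised reads (x axis) for each marker list other than the pituitary hormone genes (y axis), 1 point per tissue. The ovary stands far right for neutrophil markers (a ratio of 80.6) and far left for granulosa, theca and oocyte markers (207199 against 24286), and the hypothalamus stands right for thalamus markers (a ratio of 2.30).

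The tissues also differed in how much of each member they held, in RPM. Of 71 members over the floor in at least 1 tissue, the mean of the 2 libraries was highest in the ovary for 47, in the hypothalamus for 22 and in the pituitary for 2. Both libraries of the highest tissue lay above all other libraries for 37 of the 47, 16 of the 22 and both pituitary genes, CREB3 and FAS. The estrous and anestrous libraries of a tissue are not replicates, so this gap is set against the difference between states.

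Of the genes highest in the ovary, the matrix proteases stood farthest from the other tissues. MMP9 had 100.3 and 105 RPM in the ovary and at most 1.35 elsewhere, and MMP14 had 1523 and 1714 in the ovary and at most 63.0 elsewhere. The necroptosis kinase RIPK3 had 61.5 and 46.6 in the ovary and at most 8.42 elsewhere. For these 3 genes the gap between tissues was wider than the gap between states. For CCL2 it was not: the ovary had 9.17 RPM in estrus and 76.7 in anestrus, and the estrous pituitary had 5.53.

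Kinases and fractalkine led the genes with most reads in the hypothalamus. MAP2K4, an activator of JNK, had 173 and 226 RPM there and at most 44.9 elsewhere, and MAPK10 had 165 and 192 there, 75.9 and 70.6 for the pituitary, and 6.26 and 1.95 for the ovary. CX3CL1, which neurons express, had 55.1 and 63.2 in the hypothalamus, 17.9 and 12.6 for the pituitary, and 14.6 and 5.41 for the ovary. VCAM1 had 233 and 155 in the hypothalamus, 132 and 114 in the ovary and 26.9 and 14.4 in the pituitary. TNF was highest in the estrous hypothalamus at 3.46 and stood at 0.44 in the anestrous one, near the 0.37 of the anestrous ovary.

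**Figure D5:**
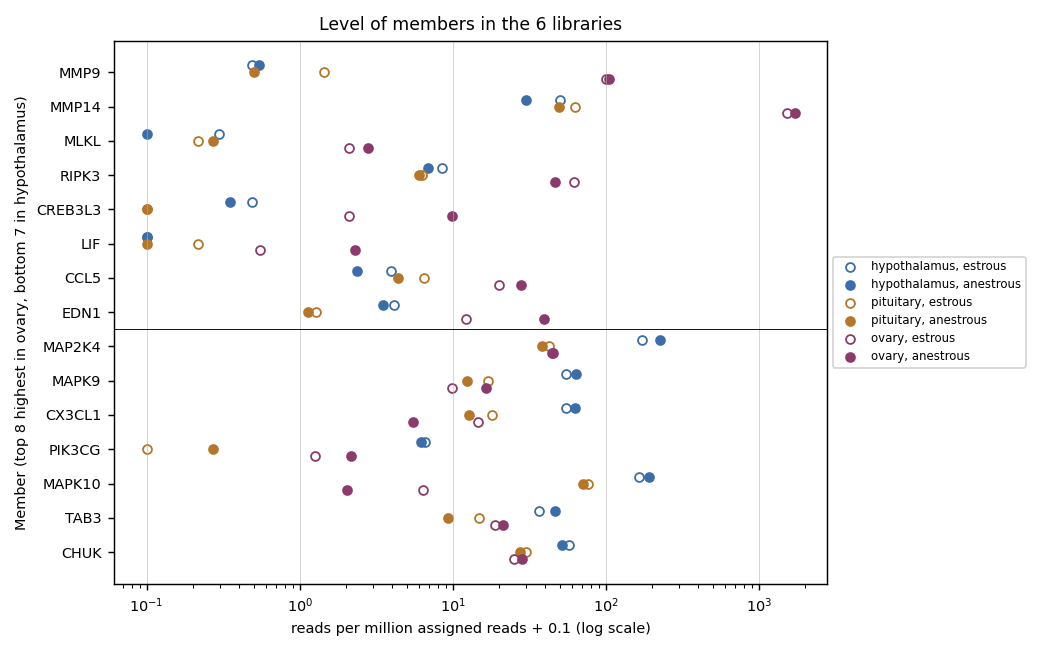
Level in RPM plus 0.1 (x axis, log scale) in each of the 6 libraries for 15 members (y axis): the 8 with the widest gap between the ovary and the next tissue, and 7 of the 8 with the widest gap between the hypothalamus and the next tissue. MMP9 and MMP14 stand farthest apart in the ovary, and MAP2K4 in the hypothalamus.

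Some genes of TNF signalling stand outside the entry. Of 13 genes placed in the role groups and found in the tables without the entry, 12 were over the floor in the ovary, 7 of them above 0 (median 0.36). There TRAF1 was 2-fold higher and FIGF 2-fold lower, where 13.6% and 10.7% of all genes over the floor were. TRAF1, an adaptor that NF-kB turns on, had 187 and 353 reads in the ovary (1.03) and 153 and 297 in the pituitary (1.04). FIGF (VEGFD), a growth factor of lymphatic vessels, had 593 and 99 ovarian reads (-2.46). CXCL8, a neutrophil chemokine, had 52 and 9 reads in the pituitary (-2.33) and reached the floor there through the estrous library only. The median of this group was -0.10 in the hypothalamus and -0.05 in the pituitary.

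Other ligands and receptors of the TNF superfamily, 21 of 28 over the floor in the ovary, had a median of 0.86 there. Of the 21, 8 were 2-fold higher and 1 was 2-fold lower, where 13.6% and 10.7% of all ovarian genes over the floor were. TNFSF8 (CD30 ligand) had 63 and 400 ovarian reads (2.76), TNFSF14 (LIGHT) 4 and 34 (2.91) and TNFRSF4 (OX40) 6 and 35 (2.47). Of the higher genes, TNFSF14, TNFRSF4 and NGFR (the p75 neurotrophin receptor) reached the floor through the anestrous library only. The lower gene, TNFRSF9, reached it through the estrous library only, so these counts are descriptions. In the hypothalamus and the pituitary, 12 of them were over the floor, with medians of -0.38 and -0.41. In each tissue 1 was at least 2-fold lower, where 2.61% and 4.23% of all genes were. In the hypothalamus that was NGFR, with 67 and 23 reads (-1.46). In the pituitary it was TNFSF8, which reached the floor through the estrous library only.

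Regulators of NF-kB outside the entry had medians of -0.09, 0.05 and 0.34 over 23 genes in hypothalamus, pituitary and ovary. In the ovary 6 were at least 2-fold higher, where 13.6% of all genes over the floor were. Of these, IKBKE had 53 and 346 ovarian reads (2.80) and the inhibitor NFKBIE 451 and 1507 (1.85). In the hypothalamus 2 were at least 2-fold lower, where 2.61% of all genes were. They were REL, an NF-kB subunit, on 19 and 8 reads (-1.11), and NFKBIZ, a nuclear NF-kB cofactor, on 214 and 100 (-1.04). REL reached the floor through the estrous library only. Proteins named for their induction by TNF, or known as its targets, had a median of 1.29 over 10 genes in the ovary. Of these, 6 were at least 2-fold higher, beside the same 13.6% of all genes. PLAUR, the urokinase receptor, had 264 and 2050 reads there (3.07), and TNFAIP8 111 and 429 (2.06). In the hypothalamus their median was -0.15 over 9 genes. IER3, an early response gene, was the 1 that was 2-fold lower there (46 and 14 reads, -1.60), where 2.61% of all genes were. In the pituitary their median was -0.37, with 6 of 9 below 0. IER3 was again the 1 that was 2-fold lower (19 and 8 reads, -1.08), where 4.23% of all genes were. It reached the pituitary floor through the estrous library only.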

How the data were processed

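Each tissue has 1 deposited table with a normalised signal per Ensembl pig gene in its estrous and anestrous library. Columns for a p-value and an adjusted p-value come from the authors, per the file headers. The labels name DESeq, and the submitters' processing notes list TopHat2 2.1.0. The read counter, its use of strand and the genome build are not given in the sources used here. Hence overlapping genes are uncertain and positions are not printed. The authors' signal is reads over a library size factor: 100% of values were whole multiples of the column's smallest value above 0 (within 0.01 of a read), and reads were recovered from it. Tables were normalised separately, so folds are within a tissue.

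Members and gene lists were chosen with earlier results of these data known. Log2 differences carry a pseudocount of 1, which understates those of genes with few reads. Folds are ratios of normalised reads without it, with 95% Clopper-Pearson intervals from the reads. PCR reads are not independent molecules. Named members are those at least 2-fold different in a tissue, up to 10 each way, the members nearest the floor and a fixed set of pathway genes, and of other lists up to 3 genes per tissue. Any other gene named was picked after seeing its value. Names came from the tables. Of 55 members that a second name table also held, 3 differed in name, and of these CREB1 and BIRC2 are not described. Promoters were not analysed here, and some genes that the rule names are not reported here. Alternatives were other scalings, pseudocounts and floors, the authors' adjusted p, and, chosen after seeing the data, rows of 1 symbol summed and a count test of the recovered reads with tissue as a block (edgeR 4.0.16 and DESeq2 1.42.0 in R 4.3.3). That test treats tissues as replicates, which they are not. Python 3.11.15 and SciPy 1.17.1 were used. Scripts were tested on simulated data.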

Additional observations from a re-analysis of the deposited data

Results flagged for a closer look

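IL1B1 and CCL2 differed between the states in opposite directions in hypothalamus and ovary. IL1B1 had log2 differences of -1.5 in the hypothalamus and 3.79 in the ovary. CCL2 had -1.47 in the hypothalamus and 3.26 in the ovary. With 1 library per tissue and state, the difference between the tissues was not tested.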

How the results depend on the processing

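No paired analysis was possible because each state has 1 library within a tissue and the labels pair no replicates, and for the same reason no replicate could be left out. A count test of all 6 libraries with tissue as a block was run instead. It fits a state effect common to the tissues and treats tissues as replicates, which they are not. It could hardly call members that differ in 1 tissue or in opposite directions, so its lack of calls decides nothing about them. No member's 2-fold difference changed sign under any alternative run, but most of these runs could not change a sign. Floors and the adjusted p leave a log2 difference as it is, and a pseudocount cannot turn its sign. The largest scaling shift of the median of all genes was -0.20, in the ovary with equal library totals, against differences of at least 1 in size. The 5 lower members of the hypothalamus became 8 with no floor, 2 with a floor of 50 and 0 with a floor of 200 or with the authors' adjusted p. The 2 lower members of the pituitary became 6 with no floor, 1 with a pseudocount of 5, 1 with a floor of 50 and 0 with a floor of 200 or with the authors' adjusted p, and 2 members were higher there with no floor. In the ovary the 12 higher members became 6 with a floor of 200 and 1 with the authors' adjusted p, and the 5 lower members became 0 under each of those. The ovarian median became 0.21 with equal library totals. The other 54 values of these counts and medians stayed close to the main ones. Counts stayed within 1.5 times the count, and medians within the 95% order-statistic interval of the median over members. That interval takes members as independent, which genes of 1 library pair are not. It is a yardstick for the shift and measures no spread between sows. Of the 24 differences of 2-fold, equal totals took CSF1 in the ovary under 2-fold and a pseudocount of 5 took TNFAIP3 in the pituitary, and 17 had a mean of at least 50. The count test across tissues called no member at an adjusted p of 0.05 with edgeR (67 tested, 2 with an unadjusted p under 0.05) or DESeq2 (74 tested, 2 with an unadjusted p under 0.05), and over all genes edgeR called 0 of 13533 (484 with an unadjusted p under 0.05) and DESeq2 46 of 16887.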

Other observations

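Many members also carry entries of other pathways in the tables, so the same members stand behind several pathway names. Of the 80, 33 carry the Toll-like receptor entry, 25 the NF-kappa B entry, 11 the GnRH signaling entry, 18 the estrogen signaling entry and 13 the prolactin signaling entry. In the ovary the genes of the Toll-like receptor entry that are not members had a median log2 difference of 1.10 (33 of 34 over the floor above 0, 19 at least 2-fold higher), and the members with that entry had 0.37 (21 of 29 above 0, 2 at least 2-fold higher). Of all ovarian genes over the floor, 50.4% lay above 0 and 13.6% were at least 2-fold higher. For the NF-kappa B entry the ovarian medians were 0.76 over 47 other genes and 0.38 over 23 members. In the hypothalamus the 11 members with the GnRH entry, kinases of the MAP kinase arm beside ATF4, JUN and MMP14, had a median of 0.31 (7 above 0), where 44 other genes with that entry had 0.05. The difference between members and other genes of an entry was not tested.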
